A study of Sus scrofa domesticus with 12 samples.

Results

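Volumetric muscle loss (VML) injuries of the pig leg that were repaired with a hyaluronan hydrogel (Hya-repaired) were compared with VML injuries that were closed without an implant (non-repaired). The comparison used 4 of the 12 sequenced limbs: the Hya-repaired limbs of pigs 16 and 17 and the non-repaired limbs of pigs 17 and 23. These 4 limbs came from 3 of the 11 pigs, because pig 17 gave its right limb to the Hya-repaired group and its left limb to the non-repaired group. Genes with at least 1 TPM (a transcript's level relative to all others of its library, corrected for length) in both limbs of either group were kept, which left 8660 of 11506 genes in the table. The animals were female Yorkshire Cross pigs, described as young adults. In each, a block of about 3 by 3 by 1 cm was cut from the middle part of the peroneus tertius (PT) muscle, a foot-lifting muscle of the anterior compartment, in both legs. Hya was a thiol-modified hyaluronan crosslinked with polyethylene glycol diacrylate, set in the defect as a biomaterial negative control that was not meant to guide remodeling, so the comparison asks what such a filling changes in the injured muscle. Muscle was taken 12 weeks after injury. The 2 sham-operated limbs (pigs 25 and 26) and the 6 limbs repaired with a decellularized extracellular matrix (ECM-repaired) of the same series are given as reference levels. They also enter the shared estimate of spread behind each standard error, confidence interval and p of the main limma fit. The labels call all 6 ECM-repaired limbs SIS (small intestinal submucosa), whereas the study describes SIS and UBM (urinary bladder matrix) limbs, so they were kept as 1 group. With 2 limbs in each group, the group is a small model of the treatment, and the spread between limbs of a group also holds the spread between animals.

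Hyaluronan is a long sugar polymer that cells spin out at their surface with hyaluronan synthases, hold with receptors such as CD44 and LYVE1, organise with proteins such as versican and TNFAIP6, and cut with hyaluronidases. In muscle it is a normal part of the matrix around fibers and becomes abundant early after injury. A VML defect is too large for the satellite cells, the stem cells of muscle, to rebuild, and it fills with collagen-rich scar that macrophages and fibroblasts populate.

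The tissue label held in all 4 limbs, though at very different levels. ACTA1, the actin of skeletal muscle fibers, was at 2743 TPM in the Hya-repaired limb of pig 16, 21517 TPM in that of pig 17, 10572 TPM in the non-repaired limb of pig 17 and 15687 TPM in that of pig 23, against 45630 and 50128 TPM in the sham-operated limbs. COL3A1, a fibrillar collagen of scar, was at 53763, 20294, 46138 and 33685 TPM in the same order and at 571 and 780 TPM in the sham-operated limbs. The Hya-repaired limbs thus stood at both ends of the range of the 4, and each result below is given with both pigs named. TPM are relative values, and in whole tissue fewer cells of a type and less RNA per cell cannot be told apart.

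No gene passed an adjusted p of 0.05 between Hya-repaired and non-repaired limbs in limma (0 of 8660 genes, 0%), and the lowest adjusted p was 0.91. At an unadjusted p under 0.05, 191 genes (2.21%) were lower in Hya-repaired limbs and 1 gene (0.0115%) was higher. That gene was SLC25A12, a mitochondrial carrier of aspartate and glutamate, at 4.12 and 3.51 TPM in the Hya-repaired limbs of pigs 16 and 17 and 0.591 and 0.39 TPM in the non-repaired limbs of pigs 17 and 23. SLC25A12 is near the filter of 1 TPM and passed it only through the Hya-repaired limbs. With a filter at 5 TPM 0 genes were higher. The typical precision was low, with a median standard error of 0.397 on the log2 scale and a 95% confidence interval that reached 0.861 to either side of the median gene. A single gene compared by exact permutation, two-sided, cannot give a p below 0.333 with 2 limbs against 2. When the 2 limbs of pig 17 were treated as a block with a set correlation of 0.5, the unadjusted counts were 842 lower and 7 higher, and again no gene passed the adjusted threshold. Without pig 17's Hya-repaired limb 2 genes passed it, leaving out both limbs of pig 17 also gave 2, and fitting the 4 limbs alone gave 1.

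Both Hya-repaired limbs lay below both non-repaired limbs for 2794 genes (32.3%) and above them for 180 genes (2.08%). This split depended on the scale of the libraries. The median difference of all tested genes was -0.28 on the log2 scale, and after rescaling each limb by a trimmed mean it was -0.01. On the rescaled values 1631 genes (18.8%) lay lower and 1123 genes (13%) lay higher in both Hya-repaired limbs, and the unadjusted counts were 158 lower and 30 higher. These shares are the base for the gene lists below: as deposited 32.3% lower and 2.08% higher, and rescaled 18.8% lower and 13% higher. Most lists are small, and a list's share near these is not a result about its members.

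Genes of the muscle fiber did not separate by treatment. Summed over 65 genes of the fast-twitch, slow-twitch, Z-disc and glycolysis lists, muscle transcripts made up 3.15% of TPM in pig 16 and 21% in pig 17 among the Hya-repaired limbs. The non-repaired limbs lay between them, at 10.1% in pig 17 and 13.8% in pig 23, and the sham-operated limbs were at 41.9% and 38.9%. The contrast was sharpest in the slow-twitch list, the thick and thin filament proteins of slow fibers, whose share in Hya-repaired muscle was 0.214% in pig 16 and 3.83% in pig 17, 17.9 times as much. In the non-repaired limbs it was 1.16% in pig 17 and 1.3% in pig 23, in the sham-operated limbs 4.47% and 4.27%, and in the ECM-repaired limbs between 0.317% and 1.65% with a median of 0.932%. The Hya-repaired limb of pig 17 was thus close to sham for slow-fiber genes and above every other injured limb, and the Hya-repaired limb of pig 16 was below all of them.

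The fast-twitch list had the same order of limbs with a narrower range. Its share was 1.59% and 9.69% in the Hya-repaired limbs of pigs 16 and 17, 5.11% and 6.64% in the non-repaired limbs of pigs 17 and 23, 21.3% and 20.1% in sham, and 1.35% to 6.65% in ECM-repaired limbs. MYH4, the myosin of the fastest fibers, was the only one of the 15 tested genes of this list without overlap: it was at 86.1 and 163 TPM in the Hya-repaired limbs and at 243 and 415 TPM in the non-repaired limbs. MYH1, the next fastest myosin, did overlap, at 305 and 1285 TPM against 728 and 2374 TPM. Genes of glycolysis and of glycogen synthesis and breakdown took 0.945% and 4.82% of TPM in the Hya-repaired limbs and 2.65% and 3.71% in the non-repaired limbs. PYGM, the muscle glycogen phosphorylase, was at 406 and 1803 TPM in Hya-repaired and at 966 and 1860 TPM in non-repaired limbs.

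**Figure D1:**
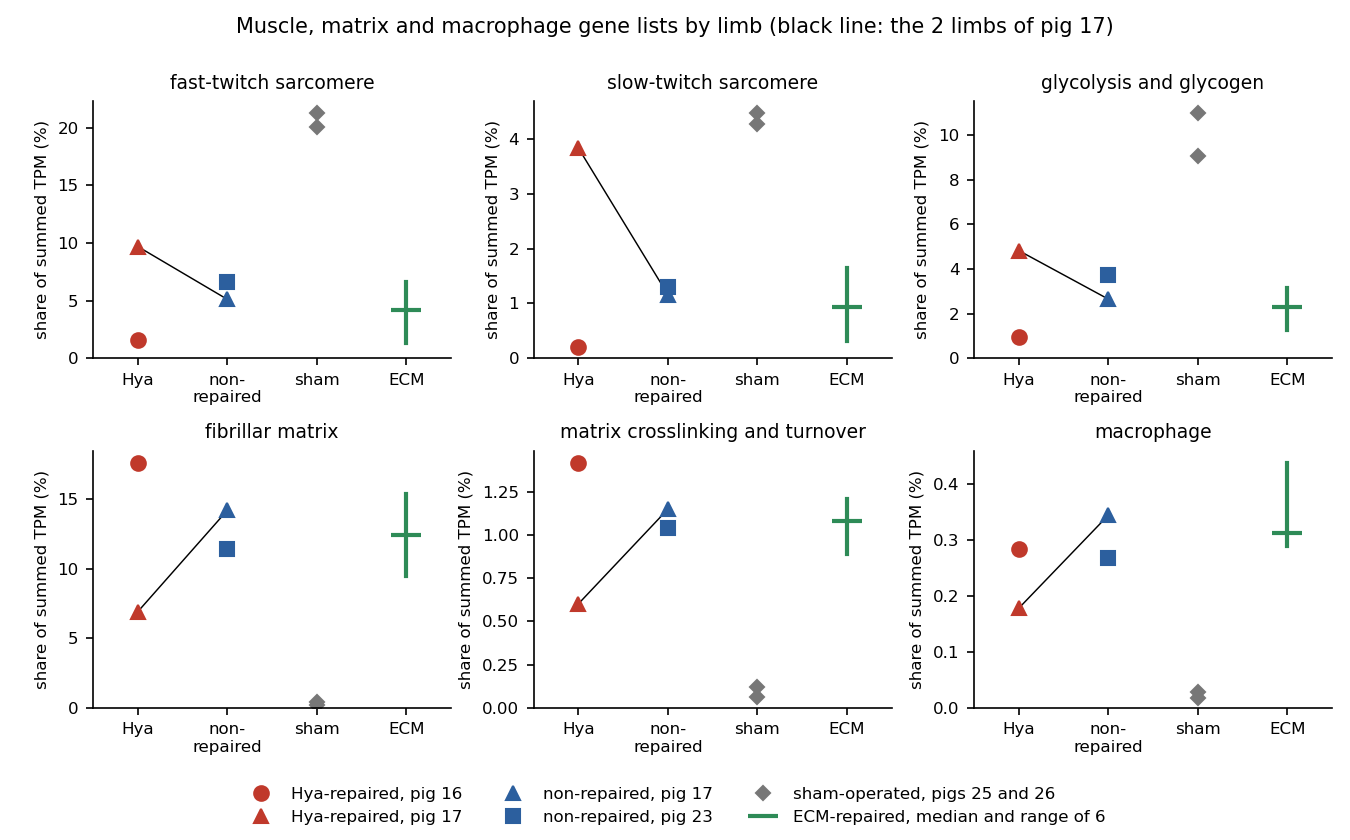
Share of the summed TPM of each limb (percent, vertical axis from 0) taken by 6 gene lists, with points for the 4 compared limbs and the 2 sham-operated limbs, a green bar for the range and a dash for the median of the 6 ECM-repaired limbs, and a black line joining the 2 limbs of pig 17. For the 3 muscle lists and both matrix lists the Hya-repaired limbs lie on either side of the non-repaired limbs, from 1.59% to 9.69% for fast-twitch sarcomere genes and from 6.92% to 17.6% for fibrillar matrix genes.

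Matrix genes ran the other way. The fibrillar matrix list, which holds collagens, small proteoglycans and fibronectin, took 17.6% of TPM in pig 16 and 6.92% in pig 17 after Hya repair. The non-repaired limbs were between, at 14.2% in pig 17 and 11.4% in pig 23. Sham-operated limbs were at 0.225% and 0.427%, and ECM-repaired limbs ran from 9.5% to 15.4% with a median of 12.4%. COL1A2, a chain of type I collagen, was at 35527 and 13905 TPM in the Hya-repaired limbs of pigs 16 and 17 and at 26853 and 25665 TPM in the non-repaired limbs of pigs 17 and 23. The group difference of COL1A2 was -0.24 ± 0.46 (log2, SE; adjusted p = 0.948) and that of COL3A1 was -0.26 ± 0.45 (adjusted p = 0.946), and both were slightly above 0 after rescaling, at 0.05 and 0.04.

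The tendon genes COMP and TNMD were highest in the Hya-repaired limb of pig 16. COMP, a matrix protein of tendon and cartilage, was at 2713 TPM there, 608 TPM in pig 17's Hya-repaired limb, and 420 and 741 TPM in the non-repaired limbs of pigs 17 and 23. TNMD (tenomodulin), a marker of tendon cells, was at 514 TPM in that limb and at 76.4, 105 and 219 TPM in the others. The 7 tendon genes in the table took 0.923% of its TPM against 0.238% to 0.414% in the other 3 limbs, 0.00918% and 0.0237% in sham, and 0.279% to 0.567% in ECM-repaired limbs. Of these 7 genes 5 were higher and 2 lower in pig 16 than in pig 23, and of 7 tested cartilage and bone genes 3 were higher and 4 lower. The defining tendon factors SCX and MKX were not analysed here. This limb was thus the lowest of the 4 in muscle and the highest in the summed share of the fibrillar matrix and tendon lists, and the part of this in the differences between groups was not tested.

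The 2 animals that were not shared and the shared animal gave separate pairs of limbs, and their differences pointed in opposite directions for many genes. In pig 17 the Hya-repaired limb was at least 2-fold above the non-repaired limb for 142 genes (1.64%) and at least 2-fold below it for 763 genes (8.81%). Trimmed-mean rescaling turned this balance, to 438 genes higher (5.06%) and 189 lower (2.18%). Between the Hya-repaired limb of pig 16 and the non-repaired limb of pig 23, 176 genes (2.03%) were at least 2-fold higher and 928 genes (10.7%) at least 2-fold lower, and 310 (3.58%) and 655 (7.56%) after rescaling. Only 6 genes were 2-fold higher in both pairs and 71 were 2-fold lower in both, while 109 were 2-fold higher in pig 17 and 2-fold lower in the other pair. After rescaling these counts were 7, 16 and 228. Across the 8660 genes, which are not independent of each other, the differences of the 2 pairs had Pearson's r = -0.268 and Spearman's rho = -0.198, and 50.7% of genes had the same sign. With the muscle genes left out r was -0.23.

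Sorting each gene by the order of its limbs showed the same thing. For 3016 genes (34.8% of those tested) both non-repaired limbs lay between the Hya-repaired limbs, and for 311 genes (3.59%) both Hya-repaired limbs lay between the non-repaired limbs. The limbs of a group were unequally alike. The non-repaired limbs, from different pigs, shared R2 = 0.953 with a median absolute difference of 0.261 (log2), and the Hya-repaired limbs shared R2 = 0.845 with a median absolute difference of 0.608. The limbs of pig 17, differing in treatment, shared R2 = 0.943 with 0.501. After rescaling the median absolute differences were 0.234, 0.442 and 0.317 in the same order.

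**Figure D2:**
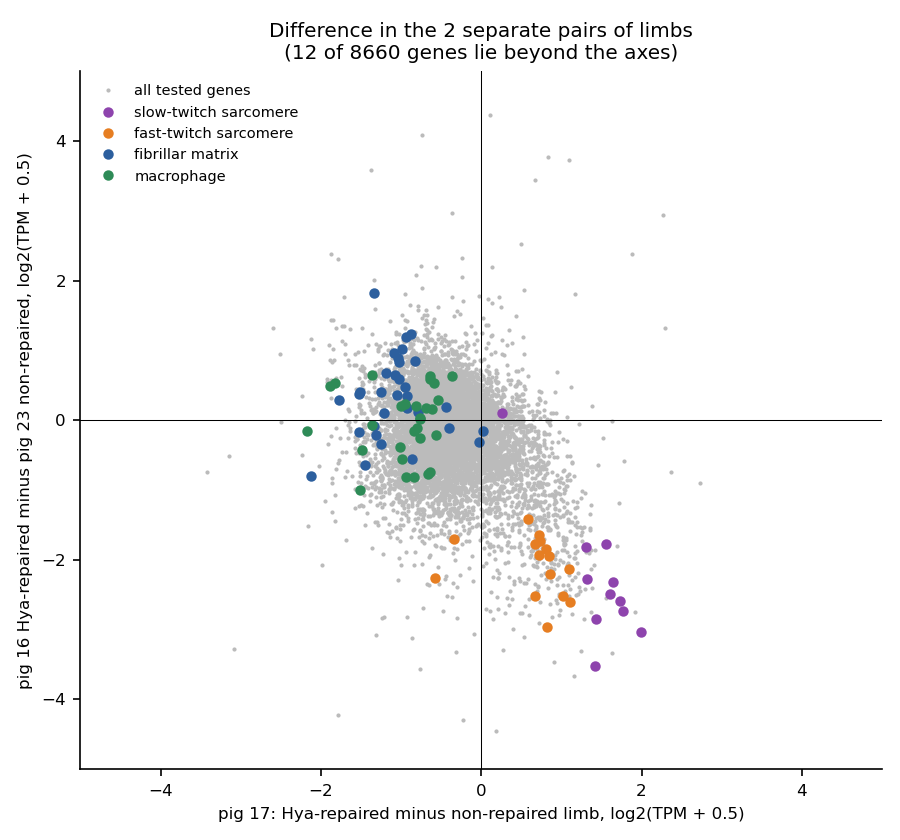
Difference between the Hya-repaired and non-repaired limb of pig 17 (horizontal axis) and between the Hya-repaired limb of pig 16 and the non-repaired limb of pig 23 (vertical axis) in log2(TPM + 0.5) for each of 8660 genes, of which 12 lie beyond the axes. Slow-twitch and fast-twitch genes gather at the lower right, higher in pig 17 and lower in the other pair, and fibrillar matrix and macrophage genes lie on the left.

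Within pig 17, where the animal is the same on both sides and each treatment has a single limb, 4 of the 6 highest differences were in genes of slow fibers. MYH7, the slow myosin, was at 2597 TPM in the Hya-repaired limb and 655 TPM in the non-repaired limb, a log2 difference of 1.99. MYL2, a light chain of slow myosin, was at 6556 and 1917 TPM (1.77), TNNT1, slow troponin T, at 3773 and 1136 TPM (1.73), and CA3, a carbonic anhydrase of slow fibers, at 1134 and 299 TPM (1.92). The 2 highest were outside this group: FGFR4, a growth factor receptor of muscle and its precursors, was at 24.3 against 4.3 TPM (2.37) and MYL6, a light chain of smooth and non-muscle myosin, at 48.6 against 9.5 TPM (2.30). Of these 6 genes only MYL6 was also higher in the other pair, by 1.32. The other 5 were lower there by 0.74 to 3.04 on the log2 scale.

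All 40 tested genes of oxidative phosphorylation were higher in the Hya-repaired limb of pig 17 than in its non-repaired limb, with a median of 0.70, and 35 of the 40 were lower in pig 16 than in pig 23, with a median of -0.52. The medians of all genes in the 2 pairs were -0.431 and -0.178. Genes of the TCA cycle and fatty acid oxidation gave 29 of 29 higher in pig 17 and 24 of 29 lower in the other pair. Among atrophy genes TRIM63, a ubiquitin ligase that marks sarcomere proteins for breakdown, was at 174 TPM in pig 17's Hya-repaired limb and 52.5 TPM in its other limb, and at 19.1 TPM in the Hya-repaired limb of pig 16 against 44.1 TPM in pig 23.

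The 6 lowest differences within pig 17 were in genes of mixed roles. ITGA2, a collagen-binding integrin chain, was at 1.92 TPM in the Hya-repaired and 25.4 TPM in the non-repaired limb, a difference of -3.42, with 10.7 TPM in pig 16 and 18.3 TPM in pig 23. SPP1 (osteopontin), made by macrophages of injured tissue, was at 131 against 589 TPM (-2.17) and at 228 and 255 TPM in pigs 16 and 23. POSTN (periostin), a matrix protein of wounds, was at 606 against 2643 TPM (-2.12). SLC30A8, a zinc transporter, ROBO1, a guidance receptor, and TMEM35 completed the 6 lowest, with differences of -2.60, -2.50 and -2.13, and their differences in the other pair were 1.32, -0.03 and 1.16. Of the 32 tested fibrillar matrix genes 31 were lower in the Hya-repaired limb of pig 17, with a median of -1.04 (-0.64 after rescaling), and 22 were higher in pig 16 than in pig 23, with a median of 0.35 (0.53 after rescaling).

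**Figure D3:**
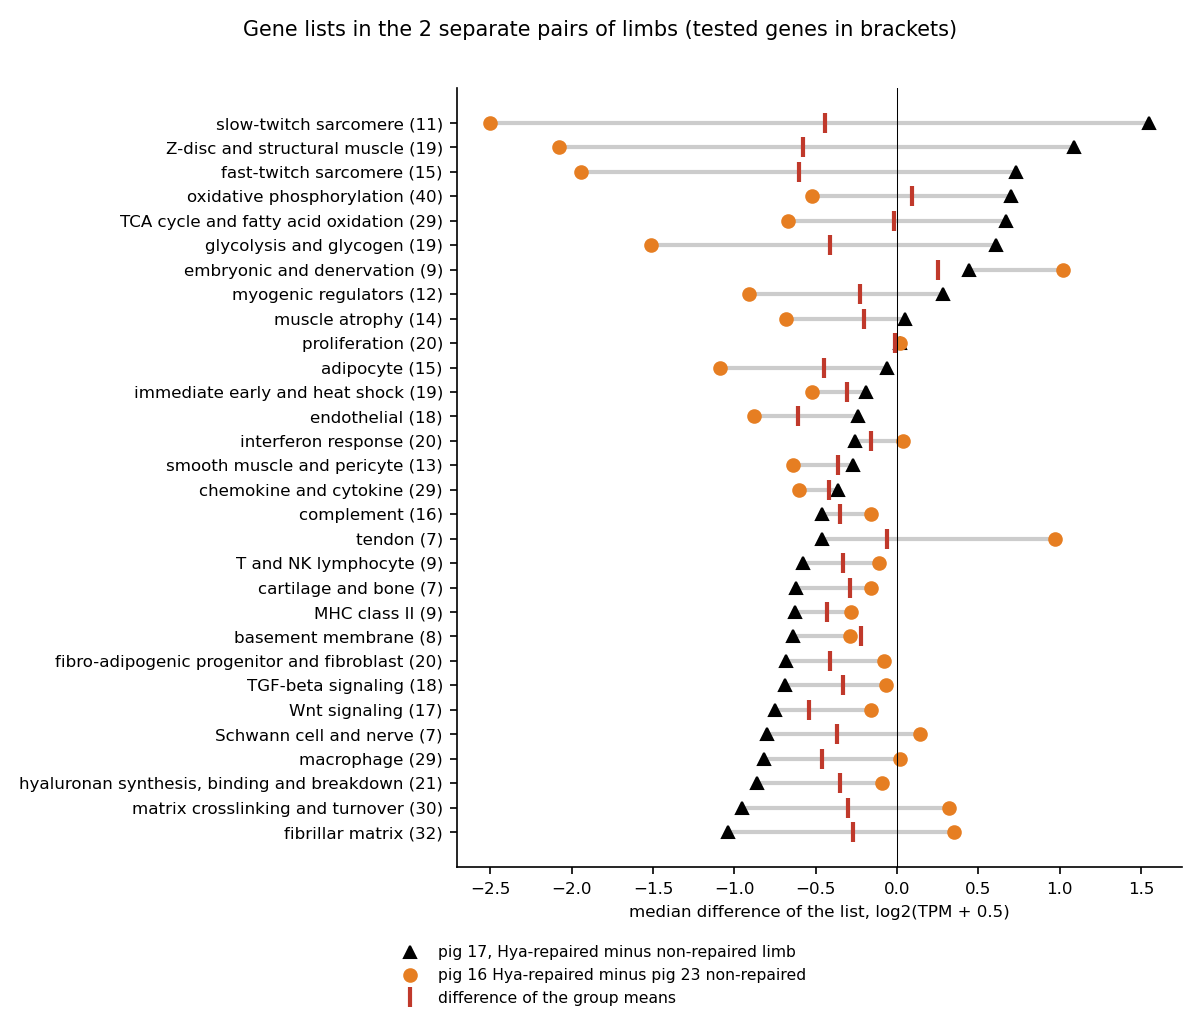
Median difference of each gene list with at least 7 tested genes, in log2(TPM + 0.5), for the limbs of pig 17 (triangles), for pig 16 against pig 23 (circles) and for the group means (red ticks). The muscle and energy lists lie right of 0 in pig 17 and left of it in the other pair, from 1.55 to -2.50 for slow-twitch sarcomere, and the fibrillar matrix and crosslinking lists do the reverse.

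The 2794 genes (32.3%) for which both Hya-repaired limbs lay below both non-repaired limbs are by this also lower in both pairs. Of 1177 such genes that averaged at least 10 TPM and had a symbol, 79 had an unadjusted limma p under 0.05, and those with the smallest p are described here together with those at the other end. None passed the adjusted threshold, with an adjusted p of 0.91 for each of these genes.

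FGF7 (keratinocyte growth factor), a growth factor that fibroblasts release, was at 17.5 and 12.7 TPM in the Hya-repaired limbs of pigs 16 and 17 and at 39 and 42.4 TPM in the non-repaired limbs of pigs 17 and 23. The groups did not overlap, and sham-operated limbs were lower still at 2.46 and 4.43 TPM. ECM-repaired limbs ran from 18.8 to 38.3 TPM with a median of 23.5 TPM. The non-repaired limbs lay above this range and the Hya-repaired limbs below it. The difference was -1.41 ± 0.38 (log2, SE; 95% confidence interval -2.24 to -0.59; unadjusted p = 0.00279 in limma), and -1.13 after rescaling. The difference was -1.58 in pig 17 and -1.25 between pigs 16 and 23. The choice of genes without overlap and with a small p requires the same sign in both pairs and favors like values, so this is no separate support.

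POSTN was at 1940 and 606 TPM in Hya-repaired and at 2643 and 3391 TPM in non-repaired limbs, and at 7.1 and 15.7 TPM in sham. Its difference was -1.47 ± 0.50 (unadjusted p = 0.0117 in limma). LUM (lumican), a proteoglycan that spaces collagen fibrils, was at 715 and 549 TPM against 1310 and 909 TPM (-0.80 ± 0.33), and LOX, the enzyme that crosslinks collagen, at 35.2 and 12.2 TPM against 46 and 63 TPM (-1.35 ± 0.64). CTSK (cathepsin K), a collagen-degrading protease, was at 343 and 175 TPM against 525 and 407 TPM (-0.91 ± 0.41). These 4 genes were chosen for a small p or their place in a list. Of the fibrillar matrix list 5 of 32 tested genes lay lower and 0 higher, and of the crosslinking and turnover list 4 of 30 lay lower and 1 higher, fewer lower than the 32.3% of all genes. After rescaling these counts were 4 and 0, and 4 and 7.

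GJA1, the gap junction protein connexin 43, was at 214 and 111 TPM in Hya-repaired and 391 and 348 TPM in non-repaired limbs (-1.26 ± 0.44). VCAM1, an adhesion molecule that holds leukocytes, was at 15.7 and 15.6 TPM against 26.1 and 45.7 TPM (-1.12 ± 0.43). IL33, an alarm cytokine of stromal and endothelial cells, was at 4.74 and 5.52 TPM against 13.7 and 36.7 TPM (-2.03 ± 0.75), so that the Hya-repaired limbs were close to the 3.34 and 2.99 TPM of sham. The groups do not overlap in these 3 genes, as their choice required.

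The remaining lower genes have other roles. ALG5, an enzyme of protein glycosylation, had the smallest p of all tested genes, at 0.647 and 5.06 TPM against 18.7 and 21 TPM (-3.01 ± 0.78; unadjusted p = 0.00211 in limma). In sham ALG5 was at 1.29 and 4.37 TPM, and in ECM-repaired limbs at 4.08 to 19.2 TPM. Its difference was -1.79 in pig 17 and -4.23 between pigs 16 and 23, where the limb of pig 16 was below 1 TPM. SOCS5, a brake on cytokine signaling, was at 7.99 and 5.94 TPM against 12 and 15 TPM (-0.91 ± 0.35). TMEM30A, which helps move lipids across membranes, EFR3A, which anchors a lipid kinase at the cell membrane, and DDX3X, an RNA helicase, differed by -0.86 ± 0.31, -1.17 ± 0.44 and -1.18 ± 0.45. For EFR3A and DDX3X the Hya-repaired limbs lay below sham as well, with DDX3X at 17.5 and 23.8 TPM against 55.4 and 59 TPM in sham.

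**Figure D4:**
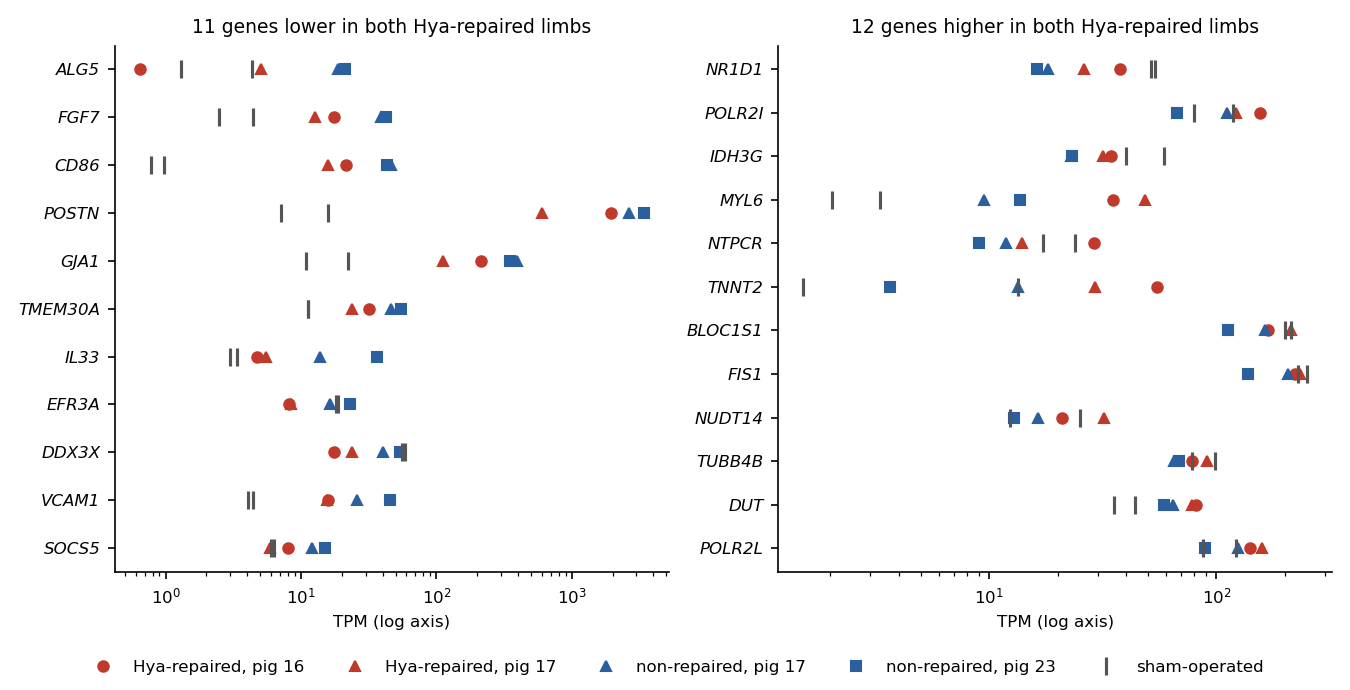
TPM (logarithmic axis) of genes with the smallest unadjusted p among those lower (left, 11 genes) and higher (right, 12 genes) in both Hya-repaired limbs and averaging at least 10 TPM, one symbol for each limb and grey ticks for the 2 sham-operated limbs. The groups do not overlap for these genes by the way they were chosen, and the gap is wide for FGF7, CD86 and IL33 and narrow for BLOC1S1 and FIS1.

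Genes higher in both Hya-repaired limbs were fewer and their differences smaller beside their errors. Of 117 that averaged at least 10 TPM and had a symbol, 0 had an unadjusted p under 0.05. NR1D1 (REV-ERB alpha), a repressor of the circadian clock, was at 37.7 and 26.1 TPM in the Hya-repaired limbs of pigs 16 and 17 and at 18.1 and 16.3 TPM in the non-repaired limbs of pigs 17 and 23 (0.85 ± 0.43; unadjusted p = 0.0676 in limma). Sham-operated limbs were higher than both groups, at 53.4 and 51.7 TPM.

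TNNT2, the cardiac troponin T that regenerating and denervated fibers also make, was at 54.8 and 29.2 TPM against 13.4 and 3.67 TPM (2.41 ± 1.39), with 1.52 and 13.4 TPM in sham. MYL6 was at 35.1 and 48.6 TPM against 9.5 and 13.7 TPM (1.81 ± 1.00). TNNT2 belongs to a list of embryonic and denervation genes of which 3 of 9 tested were higher in both Hya-repaired limbs and 0 were lower, beside 2.08% and 32.3% of all genes. The list median was 0.25 against -0.28 for all genes. After rescaling 4 were higher and 0 lower, beside 13% and 18.8% of all genes, with a median of 0.54 against -0.01. The other members higher in both were ACTC1, the cardiac actin of developing fibers, at 97.9 and 59.8 TPM against 42.2 and 16.5 TPM, and MYL4, an embryonic myosin light chain, at 1.3 and 1.29 TPM against 0.822 and 0.137 TPM. MYL4 is near the filter of 1 TPM and passed it only through the Hya-repaired limbs, so its place in the count adds no support. CHRNA1, the acetylcholine receptor subunit that spreads over a denervated fiber, overlapped, at 35.7 and 22 TPM against 26 and 10.6 TPM. NCAM1, of the same list, overlapped with a group difference below 0, at 13.4 and 5.5 TPM against 15 and 12 TPM (-0.62 ± 0.56). Its difference was -1.37 in pig 17 and 0.14 between pigs 16 and 23. For the whole list, pig 17 gave 5 positive and 4 negative differences, and the other pair gave 7 and 2. The list took 0.043% and 0.0406% of TPM in the Hya-repaired limbs and 0.0267% and 0.0307% in the non-repaired limbs. The Hya-repaired limbs were within the range of sham, 0.0339% and 0.0729%, and of ECM-repaired limbs, 0.0113% to 0.159% with a median of 0.0741%. In sham ACTC1 was at 52.2 and 119 TPM and MYL4 at 0.917 and 0.862 TPM.

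The other higher genes have varied roles. IDH3G, a subunit of a TCA cycle enzyme, was at 34.4 and 31.7 TPM against 22.8 and 23.1 TPM (0.51 ± 0.27), and FIS1, which acts in mitochondrial fission, differed by 0.43 ± 0.28. The RNA polymerase II subunits POLR2I and POLR2L differed by 0.67 ± 0.35 and 0.50 ± 0.34. DUT, which clears dUTP, NTPCR, a nucleotide hydrolase, NUDT14, another hydrolase of nucleotide sugars, BLOC1S1, of lysosome sorting, and TUBB4B, a tubulin, differed by 0.33 to 0.94. In the proliferation list 2 of 20 tested genes were higher in both Hya-repaired limbs and 0 lower, beside 2.08% and 32.3% of all genes. After rescaling 10 were higher and 0 lower, when 13% and 18.8% of all genes were. At an unadjusted p under 0.05 in limma 0 were called. In pig 17, 11 were higher and 9 lower, and in the other pair 10 and 10. The median was 0.02 in each pair (0.39 and 0.18 after rescaling). The list's shares overlapped, at 0.0336% and 0.0271% of TPM in Hya-repaired and 0.0249% and 0.0352% in non-repaired limbs. Of that list BIRC5, which guards chromosome segregation, was at 11.8 and 10.2 TPM against 6.07 and 9.99 TPM, and MCM5, a replication helicase subunit, at 8.31 and 5.85 TPM against 3.72 and 5.19 TPM.

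Macrophage genes lay below both non-repaired limbs about as often as all genes did. Of 29 tested genes 11 lay below both non-repaired limbs and 0 above, beside 32.3% and 2.08% of all genes, and after rescaling 7 lay below and 1 above, beside 18.8% and 13%. At an unadjusted p under 0.05 in limma 5 of the 29 were lower and 0 higher, beside 2.21% and 0.0115% of all genes. The list as a whole was not tested. The list median was -0.46, beside -0.28 for all genes (-0.16 and -0.01 after rescaling). All 29 were lower in the Hya-repaired than in the non-repaired limb of pig 17, with a median of -0.82 beside -0.431 for all genes (-0.44 and -0.0539 after rescaling), and the median between pigs 16 and 23 was 0.02 (0.19 after rescaling). As a share of TPM the list took 0.284% and 0.178% in the Hya-repaired limbs, 0.344% and 0.267% in the non-repaired limbs, 0.0176% and 0.028% in sham and 0.289% to 0.438% in ECM-repaired limbs. The muscle share of the Hya-repaired limb of pig 17, 21% against 10.1%, moved with this difference, and its part in it was not tested.

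CD86, a costimulatory molecule of activated antigen-presenting cells, had the smallest p of this list. It was at 21.5 and 15.9 TPM in Hya-repaired and 46.4 and 43.4 TPM in non-repaired limbs, with less than 1 TPM in sham. In ECM-repaired limbs it was at 14.8 to 44.6 TPM, with a median of 24 TPM. Its difference was -1.26 ± 0.42 (95% confidence interval -2.16 to -0.36; unadjusted p = 0.0101 in limma). It was -1.51 in pig 17 and -1.0 between pigs 16 and 23, and the same sign in both follows from groups that do not overlap. CD163, a scavenger receptor used in the study to stain macrophages, was at 22 and 14.9 TPM against 30 and 32.5 TPM (-0.77 ± 0.34; unadjusted p = 0.0403 in limma; -0.48 after rescaling). MRC1, the mannose receptor, was at 15.7 and 10.2 TPM against 20 and 28 TPM (-0.88, unadjusted p = 0.0274 in limma). CCR1, a chemokine receptor named after its values were seen, also had an unadjusted p under 0.05 in limma. CD68 and CD14, general markers of the lineage, overlapped between the groups, with CD68 at 44.3 and 24.1 TPM against 48.7 and 38.5 TPM.

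Other immune lists had counts that are given beside those of all genes. In the complement list 6 of 16 tested genes lay lower and 1 higher, and 4 and 1 after rescaling, beside 32.3% and 2.08%, and 18.8% and 13%, of all genes. C7, a late complement component, was at 3.76 and 5.43 TPM against 7.51 and 23.8 TPM (-1.47; unadjusted p = 0.0305 in limma), and C3AR1, a receptor for a fragment of C3, at 7.95 and 5.48 TPM against 13 and 12.5 TPM (-0.90; unadjusted p = 0.0486 in limma). In the chemokine and cytokine list 8 of 29 lay lower and 0 higher, fewer lower than the share of all genes, with a median of -0.42 (-0.15 after rescaling, when 5 lay lower and 4 higher). IL6, a cytokine of injury, was near the filter at 0.298 and 0.823 TPM against 1.42 and 2.94 TPM (-1.32; unadjusted p = 0.0199 in limma), and passed it only through the non-repaired limbs. IL10, which restrains inflammation, was at 2.45 and 0.507 TPM against 1.53 and 2.22 TPM (-0.45; adjusted p = 0.926), and TNF stayed below 1 TPM in all 4 limbs and was not tested.

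Of the lymphocyte lists only 9 of 27 T and NK genes and 3 of 15 B and plasma cell genes were tested, and 3 and 2 of these lay lower and 0 higher, too few to set beside the 32.3% of all genes. After rescaling 1 T and NK gene lay lower and 1 higher, and 2 B and plasma cell genes lay lower. SLA genes are the pig's tissue-type genes. SLA-DRB1 was at 1.14 TPM in pig 16, 55.3 and 90.2 TPM in the limbs of pig 17 and 231 TPM in pig 23. SLA-2, named after its values were seen, was at 0.106, 41.6, 43.8 and 66.1 TPM in the same order. Pigs 16 and 23 also differ in treatment, so animal and treatment cannot be told apart between them. The limbs of pig 17 were the closest pair for SLA-2. These genes have many near-identical alleles and copies, among which a short read cannot always be placed, so their levels are uncertain. SLA-DRA, a chain of MHC class II, was at 242 and 188 TPM against 292 and 304 TPM.

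Genes that make, hold and cut hyaluronan itself gave no call. Of 41 listed genes of hyaluronan synthesis, binding and breakdown 30 were in the table and 21 were tested; 9 lay below both non-repaired limbs and 1 above (6 and 3 after rescaling), beside 32.3% and 2.08% of all genes (18.8% and 13%), and 0 had an unadjusted p under 0.05. The list median was -0.35 beside -0.28 for all genes (-0.07 and -0.01 after rescaling). In pig 17, 18 of the 21 were lower in the Hya-repaired limb, with a median of -0.86 (-0.46 after rescaling), and between pigs 16 and 23 the median was -0.09, which rescaling turned to 0.08. The list took 0.161% and 0.0712% of TPM in Hya-repaired limbs, 0.128% and 0.116% in non-repaired limbs, and 0.0123% and 0.0222% in sham.

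The synthases were at low levels. HAS1 was at 0.0657 and 0.0418 TPM in the Hya-repaired limbs and 0.167 and 0.48 TPM in the non-repaired limbs, and HAS3 was at 0.372 to 0.808 TPM over the 4, so neither was tested. SHAS2, the pig entry for which RefSeq gives the synonym Has2, was at 1.2 and 1.23 TPM in Hya-repaired and 1.9 and 1.96 TPM in non-repaired limbs, with 0.321 and 0.251 TPM in sham. The groups did not overlap, but the difference of -0.50 ± 0.51 was within its error (adjusted p = 0.912).

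Among receptors CD44 ran with the matrix: it was at 105 TPM in the Hya-repaired limb of pig 16, 24.3 TPM in that of pig 17, and 48.5 and 46.8 TPM in the non-repaired limbs, and the group difference was 0.09 ± 0.57 (adjusted p = 0.99). LYVE1, the receptor of lymphatic vessels and some macrophages, was lower in both Hya-repaired limbs, at 16.8 and 14 TPM against 28.1 and 21 TPM (-0.65; unadjusted p = 0.0575 in limma). TLR2, a pattern receptor that also responds to hyaluronan fragments, was at 9.11 and 7.07 TPM against 11.3 and 12.5 TPM.

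Of the genes that break hyaluronan down, HYAL2, a hyaluronidase held at the cell surface, was at 17.1 and 16.1 TPM in Hya-repaired and 29.5 and 38.7 TPM in non-repaired limbs (-1.01; unadjusted p = 0.088 in limma). HYAL1, its lysosomal partner, was at 8.98 and 2.94 TPM against 9.06 and 11.9 TPM. HYAL3 overlapped, at 51 and 19.8 TPM against 35.6 and 33.5 TPM. Among organisers VCAN (versican) was at 82.9 and 41.2 TPM against 103 and 96.5 TPM, TNFAIP6, which links hyaluronan to other chains, at 14.4 and 13.4 TPM against 20.8 and 15.3 TPM, and ACAN (aggrecan), the cartilage proteoglycan, at 656 and 180 TPM against 391 and 355 TPM. ITIH5 alone of the 21 was higher in both Hya-repaired limbs, at 45.2 and 34.7 TPM against 33 and 31 TPM.

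**Figure D5:**
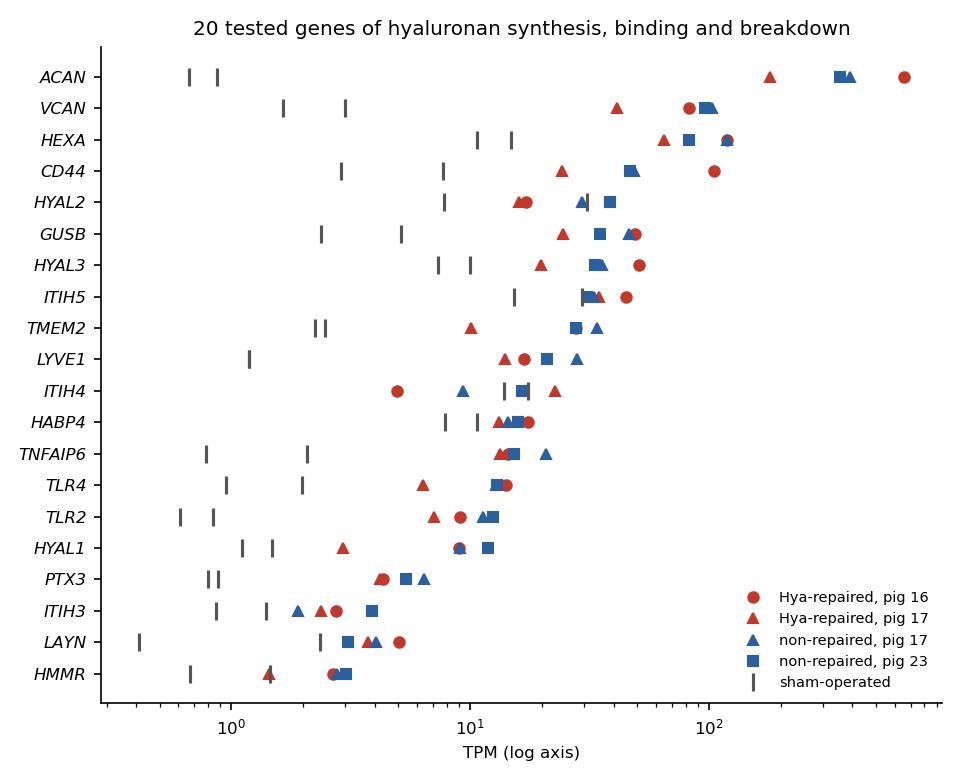
TPM (logarithmic axis) of 20 tested genes of hyaluronan synthesis, binding and breakdown in each of the 4 compared limbs, with grey ticks for the sham-operated limbs. The Hya-repaired limb of pig 17 is the lowest of the 4 for most of these genes, while that of pig 16 is the highest for CD44 and ACAN, at 105 and 656 TPM.

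Growth factor pathways of scar gave no call between the groups. TGFB1, a driver of fibroblast matrix synthesis, was at 92 and 42.5 TPM in Hya-repaired and 78 and 73.3 TPM in non-repaired limbs (-0.27 ± 0.46; adjusted p = 0.945), and after rescaling its difference was 0.02. Of 18 tested genes of TGF-beta signaling 7 lay lower and 0 higher, and 3 and 1 after rescaling, beside 32.3% and 2.08%, and 18.8% and 13%, of all genes. The receptor TGFBR2 was among the lower at 63.4 and 24.5 TPM against 69.2 and 91.1 TPM. In Wnt signaling 6 of 17 lay lower and 0 higher, and 4 and 0 after rescaling, also near the shares lower of all genes. Among the lower was TCF7L2, a transcription factor of the pathway, at 2.12 and 1.51 TPM against 4.3 and 4.71 TPM. SFRP2, a secreted Wnt modulator, overlapped at 934 and 515 TPM against 498 and 1022 TPM. Of 20 tested genes of fibro-adipogenic progenitors and fibroblasts 5 lay lower and 0 higher, and 2 and 1 after rescaling, fewer lower than among all genes. PRRX1, a factor of mesenchymal progenitors, was at 17.7 and 14.3 TPM against 33.5 and 29.4 TPM, while PDGFRA, which marks the same cells, overlapped at 11.9 and 7.16 TPM against 11.1 and 17.4 TPM.

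Vessel genes were mostly lower in both pairs of limbs as deposited, and the medians of the pairs differed in sign after rescaling. Of 18 tested endothelial genes 9 lay below both non-repaired limbs and 0 above (5 and 2 after rescaling), beside 32.3% and 2.08% of all genes (18.8% and 13%), with a median of -0.61 beside -0.28 (-0.33 and -0.01 after rescaling), and 0 had an unadjusted p under 0.05. In pig 17 all 18 were lower in the Hya-repaired limb, with a median of -0.24, which rescaling turned to 0.16. Between pigs 16 and 23, 14 were lower and 4 higher, with a median of -0.88 (-0.70 after rescaling). The medians of all genes in the 2 pairs were -0.431 and -0.178. PECAM1, an adhesion molecule of endothelial cells, was at 118 and 99.9 TPM in Hya-repaired limbs and 120 and 232 TPM in non-repaired limbs, so that the non-repaired limb of pig 23 carried most of the difference. ACKR1, a chemokine receptor of venules, was at 17 and 26.5 TPM against 44.4 and 72.2 TPM (-1.39; unadjusted p = 0.0704 in limma).

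The adipocyte genes ADIPOQ and PLIN1 were low in a single limb. ADIPOQ (adiponectin) was at 0.826 TPM in pig 16's Hya-repaired limb and at 9.98, 12.5 and 12.8 TPM in pig 17's Hya-repaired limb and the non-repaired limbs of pigs 17 and 23. PLIN1, which coats fat droplets, was at 0.269, 5.07, 5.44 and 5.95 TPM in the same order. Of 15 tested genes of the list 6 lay lower in both Hya-repaired limbs and 0 higher, beside 32.3% and 2.08% of all genes, and 0 lay lower or higher after rescaling.

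None of the tested regulators of muscle formation had an unadjusted p under 0.05 in limma. PAX7 and MYOG were not analysed here. MYF5, a factor of satellite cells, was near the filter at 1.03 and 1.58 TPM in Hya-repaired and 0.775 and 0.799 TPM in non-repaired limbs, and passed it only through the Hya-repaired limbs. MYOD1, a factor that commits cells to muscle, was at 2.3 and 5.6 TPM against 4.09 and 3.73 TPM. MEF2A, a factor of muscle differentiation, was lower at 2.81 and 5.25 TPM against 9.1 and 10.5 TPM (-1.24; unadjusted p = 0.0511 in limma). Of 12 tested genes 1 lay higher and 2 lower, and 2 and 1 after rescaling, beside 2.08% and 32.3%, and 13% and 18.8%, of all genes.

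Some large single differences were confined to 1 limb among the 4. PPIB, a protein-folding enzyme of the secretory pathway named after its values were seen, was at 4.67e-05 TPM in pig 16's Hya-repaired limb and at 82.7, 119 and 85.6 TPM in the other 3. It is 1 of the 2 genes that passed the adjusted threshold when pig 17's Hya-repaired limb was left out, with an adjusted p of 5.8e-05 in limma. ATOX1, a copper carrier, was at 0.496 TPM in the non-repaired limb of pig 23 and at 131, 95.7 and 111 TPM in the other 3. Such values near 0 in a single library can be failed estimates, and no fold is given for them.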

How the data were processed

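RNA from PT muscle of 12 limbs was sequenced by the authors from 1 µg of total RNA (TruSeq, 76-base paired ends, 55 M reads for a library on average, per the labels). The deposited values are TPM, made by the authors; the submitters' processing notes name kallisto, a pseudoaligner. No genome build was needed here. TPM keep no counts, so library depth is unknown and precision rests on how many limbs there are. Of 11506 names, 21 had become dates and were left out, and RefSeq gave a symbol for 618 of the 1833 LOC names. Another 239 genes were at 0 in every library, COL1A1 among them.

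Genes with at least 1 TPM in both limbs of either group were tested on log2(TPM + 0.5), a scale that understates the change of low genes, with limma 3.58.1 in R 4.3.3 (a coefficient for each of 4 conditions over all 12 libraries, eBayes with trend and robust estimation, Benjamini-Hochberg adjustment, threshold 0.05). The limbs count as replicates although pig 17 gave 2 of them. Group membership came from the labels. The method was tested on simulated data. Lists are described by counts and medians beside those of all genes, and 34 gene lists were used. Differences within pig 17 and between pigs 16 and 23 come from single limbs and have no test.

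The genes named are the 12 higher and 12 lower with the smallest unadjusted p among genes averaging at least 10 TPM, with a symbol and no overlap between groups; the 6 highest and 6 lowest differences within pig 17 among genes averaging at least 10 TPM there; genes the study measured or the treatment concerns (CD163, TGFB1, IL10, TNF, MYOG, PAX7, HAS1, HAS2, HAS3, CD44, COL1A2, COL3A1); and from each list described its first 3 genes and the 3 with the smallest unadjusted p. Some genes that this rule names are not reported here. Other list members are given for their role and were chosen with their values known. The members and lists were chosen with earlier results of these data known. Alternatives covered rescaling (trimmed mean, or median of ratios), leaving out muscle genes, pseudocounts of 0.1 and 1, filters, the samples fitted, the variance model, pig as a block, and leaving out each limb.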

Additional observations from a re-analysis of the deposited data

How the results depend on the processing

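The count of genes past an adjusted p of 0.05 was 0 in limma except with the 4 limbs fitted alone (1 gene), without both limbs of pig 17 (2 genes, chosen after seeing the data) and on leaving out limbs (0 to 2, the 2 without the Hya-repaired limb of pig 17). Unadjusted counts, 191 lower and 1 higher, became 436 and 9 with the 4 limbs alone and 842 and 7 with pig as a block at a set correlation of 0.5, an alternative chosen after seeing the data because an estimated correlation could not be fitted. They ranged from 31 to 843 lower and from 0 to 69 higher on leaving out limbs: 31 without the non-repaired limb of pig 23, 843 without the Hya-repaired limb of pig 16, and 796 without the ECM-repaired limb of pig 24. The higher count alone was 30 and 31 after trimmed-mean and median-of-ratios rescaling, 6 with muscle genes left out, 3 at a pseudocount of 0.1, 14 with no filter, 0 at 5 TPM, 3 without trend and robust estimation, and 60 without pig 17. Genes without overlap, 2794 lower and 180 higher, were 1631 and 1123 after trimmed-mean and 1603 and 1158 after median-of-ratios rescaling. Higher were 293 with muscle genes left out and 291 with no filter, and lower were 1851 at 5 TPM. Without pig 17 they were 5381 and 3279, and on leaving out limbs 3300 to 6483 lower and 446 to 2706 higher, since fewer limbs overlap less. Within pig 17, 763 genes 2-fold lower and 142 higher became 189 and 438, 187 and 440, and 308 and 268 under the same 2 rescalings and with muscle genes left out. The median of all genes, -0.28, was -0.01 and -0.00 after the rescalings and -0.50 to -0.10 on leaving out limbs. In these alternatives the rescaling changes the level of every gene in a limb, and for the other changes the cause was not tested.

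Of 669 values under alternatives of 42 genes the report describes, 653 kept their sign and none passed the adjusted threshold. PPIB, outside these 42, passed it without both limbs of pig 17 (adjusted p = 0.00101 in limma) and without pig 17's Hya-repaired limb (5.8e-05). The 16 that changed sign were CD44 with the pig block (-0.27) and on leaving out limbs (-0.95 without pig 16, up to 1.13), COL1A2, COL3A1 and TGFB1 after trimmed-mean (0.05, 0.04, 0.02) and median-of-ratios rescaling (0.06, 0.04, 0.02), without pig 17 (0.47, 0.67, 0.33) and without its Hya-repaired limb (0.44, 0.45, 0.28; lowest on leaving out a limb -0.92, -0.96, -0.82), and IL10 in the last 2 (0.12, 0.33; lowest -1.22). Of 438 list medians, 56 moved by more than the spread of the 2 pairs. TPM near the filter limit what can be seen of HAS1, HAS3, IL6 and TNF.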
